A study of Mus musculus with 38 samples.

Results

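Mov10l1, Mael, Ddx4, Pld6, Asz1, Gtsf1, Fkbp6, Henmt1 and Exd1 encode proteins that make PIWI-interacting RNAs (piRNAs) or help to build the granules in which they are made. They were found by gene name in the count tables of germ cells sorted from mouse fetal testes. All 9 were among the 27633 genes of the Inhba tables, and 6 were among the 9798 genes of the Inha table, which held no entry named Pld6, Gtsf1 or Henmt1. In each Inhba genotype the transcripts of 8 of the 9 passed the test for a rise between embryonic day (E) 13.5 and E15.5. The exceptions, Ddx4 in wildtype (WT) and Pld6 in knockout (KO) animals, also had higher levels at E15.5. Of all genes tested, 34.0% passed for a rise in WT and 29.1% in KO animals. None of the members tested, 8 at E13.5 and 9 at E15.5, passed the test between KO and WT animals.

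RNA sequencing was done on GFP-positive germ cells (gonocytes) from individual animals of the C57/Bl6/129svJ strain. Every animal, WT controls included, carried the Oct4-GFP reporter by which the cells were sorted. The first line carried a null allele of Inhba, which encodes the subunit of activin A, and gave 7 animals at E13.5, of which 3 were WT and 4 were KO, and 8 at E15.5, with 4 of each genotype. The second line carried a null allele of Inha, the inhibin alpha subunit that restrains activin, and gave 2 pairs of littermates, each 1 WT and 1 KO, at E13.5. Both deletions were global, so the germ cells and the somatic cells around them lacked the gene alike. WT and KO are used as the sample titles give them. The genotype field contradicts the title for 5 animals, namely 928.1, titled KO at E13.5, and 941.3, 855.2, 1064.2 and 995.1, the animals titled WT at E15.5. A figure legend of the study gives the E13.5 group sizes the other way round, as 4 WT and 3 KO. The study also left out a WT gonocyte sample of E13.5 as an outlier that may have been contaminated or swapped.

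piRNAs are short RNAs that guide PIWI proteins to transposon transcripts in the germ line, where the transcripts are cut and the matching DNA is methylated. Their long precursors are unwound, cut at the outer membrane of mitochondria, loaded onto PIWI proteins, trimmed and given a methyl group at the end. In fetal male germ cells this takes place in nuage, electron-dense granules between and beside the mitochondria, while the genome regains DNA methylation. Loss of these factors in the mouse commonly leaves transposons active and males sterile.

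On GRCm38 the genes lie on 8 chromosomes and none neighbours another. Enzymes are encoded by Mov10l1 (ENSMUSG00000015365, chr15:88982909-89055152), Pld6 (ENSMUSG00000043648, chr11:59783897-59787645) and Henmt1 (ENSMUSG00000045662, chr3:108939873-108960774). Exd1 (ENSMUSG00000048647, chr2:119516505-119547627) encodes a protein with a nuclease-like fold and is described with them. The nuage and helper proteins are encoded by Ddx4 (ENSMUSG00000021758, chr13:112598333-112652475), Mael (ENSMUSG00000040629, chr1:166201201-166238747), Asz1 (ENSMUSG00000010796, chr6:18050964-18109061), Gtsf1 (ENSMUSG00000022487, chr15:103402405-103430470) and Fkbp6 (ENSMUSG00000040013, chr5:135291704-135350044). Of these, the Ddx4 product is a helicase and so an enzyme as well.

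The transcription starts of the members were compared because their transcripts rose together with age. For all 9 members RefSeq promoters of GRCm38.p6 were read, spanning 250 bases before and 50 bases after each start, 11 promoters in all. The hexamer CACGTG, which reads the same on both strands and was chosen after the sequences had been read, occurred in 5 of the 9 genes. Of 32851 mouse promoters of this length 7.15% held it, and of 27025 genes 8.09%. Because the hexamer was chosen from the members' own sequences, these shares are background only and enrichment was not tested. The promoters of the 5 genes with a match are printed 5′ to 3′ with the hexamer in capitals, followed by those of Gtsf1 and Henmt1, which had no match and the steepest rises with age.
Mov10l1, chr15:88982744-88983043, plus strand: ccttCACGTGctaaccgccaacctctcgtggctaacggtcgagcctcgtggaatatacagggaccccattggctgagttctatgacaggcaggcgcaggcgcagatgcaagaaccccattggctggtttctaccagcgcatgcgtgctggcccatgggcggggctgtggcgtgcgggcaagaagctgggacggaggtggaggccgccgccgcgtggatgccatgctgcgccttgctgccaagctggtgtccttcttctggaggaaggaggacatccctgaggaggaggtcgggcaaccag
Mael, chr1:166238695-166238994, minus strand: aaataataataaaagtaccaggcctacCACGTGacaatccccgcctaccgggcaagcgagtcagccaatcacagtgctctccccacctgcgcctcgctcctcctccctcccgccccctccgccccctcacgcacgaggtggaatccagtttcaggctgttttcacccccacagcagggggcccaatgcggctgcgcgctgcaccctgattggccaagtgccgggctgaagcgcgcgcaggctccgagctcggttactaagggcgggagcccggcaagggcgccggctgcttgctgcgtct
Ddx4, chr13:112652261-112652560, minus strand: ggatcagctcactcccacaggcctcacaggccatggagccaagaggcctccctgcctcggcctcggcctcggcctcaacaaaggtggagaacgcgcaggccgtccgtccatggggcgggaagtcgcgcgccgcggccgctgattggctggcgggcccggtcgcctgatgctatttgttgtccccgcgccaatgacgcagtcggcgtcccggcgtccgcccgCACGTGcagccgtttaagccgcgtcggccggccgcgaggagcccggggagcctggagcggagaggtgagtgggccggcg
Pld6, chr11:59787608-59787907, minus strand: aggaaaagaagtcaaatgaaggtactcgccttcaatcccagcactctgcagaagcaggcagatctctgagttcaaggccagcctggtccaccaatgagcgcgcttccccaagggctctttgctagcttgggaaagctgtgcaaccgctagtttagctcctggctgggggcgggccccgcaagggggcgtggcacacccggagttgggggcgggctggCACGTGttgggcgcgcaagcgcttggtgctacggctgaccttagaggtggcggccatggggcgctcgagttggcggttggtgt
Fkbp6, chr5:135349995-135350294, minus strand: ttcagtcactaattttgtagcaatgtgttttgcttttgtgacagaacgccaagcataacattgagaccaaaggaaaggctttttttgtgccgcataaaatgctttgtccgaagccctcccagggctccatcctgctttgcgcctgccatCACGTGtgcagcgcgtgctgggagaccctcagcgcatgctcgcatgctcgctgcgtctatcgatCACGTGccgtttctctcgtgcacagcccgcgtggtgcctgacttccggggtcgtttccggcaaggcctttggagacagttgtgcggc
Gtsf1, chr15:103430378-103430677, minus strand: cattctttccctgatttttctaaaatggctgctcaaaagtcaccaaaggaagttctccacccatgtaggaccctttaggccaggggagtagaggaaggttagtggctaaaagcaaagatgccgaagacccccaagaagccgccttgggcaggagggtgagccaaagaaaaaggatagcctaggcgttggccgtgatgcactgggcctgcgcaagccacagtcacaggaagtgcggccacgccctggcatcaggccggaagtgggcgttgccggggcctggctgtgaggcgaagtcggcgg
Henmt1, chr3:108940307-108940606, plus strand: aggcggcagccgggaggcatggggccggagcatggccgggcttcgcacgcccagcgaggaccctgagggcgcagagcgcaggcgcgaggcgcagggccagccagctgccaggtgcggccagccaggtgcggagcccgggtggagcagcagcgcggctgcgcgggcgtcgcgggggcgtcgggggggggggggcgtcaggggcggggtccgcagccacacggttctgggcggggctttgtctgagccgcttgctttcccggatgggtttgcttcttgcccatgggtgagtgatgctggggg
The hexamer began 246 bases before the start in Mov10l1 and 223 bases before it in Mael. It lay closer in Ddx4, at 29 bases, and at 1 of the 2 starts of Pld6, at 33 bases, while the other Pld6 start had no match. Fkbp6 held it at 101 and at 37 bases before the start printed here. From the other Fkbp6 start the distances were 232 and 168 bases. Asz1 and Exd1, like Gtsf1 and Henmt1, had no match in this window. In WT germ cells the log2 fold change with age, given gene by gene later, ran from 0.45 to 2.92 among the 5 genes with the hexamer and from 1.08 to 5.17 among the 4 without. The 11 promoters also held many CG pairs, from 13 in Gtsf1 to 38 in Ddx4, where the median over all promoters was 7 (quartiles 3 and 20). The hexamer itself holds a CG pair, and the shares over all promoters and genes were not matched for CG content. A match in sequence is a description of these windows only, and binding was not measured.

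Libraries of the Inhba line held 8466087 to 40600907 counts and those of the Inha line 6320539 to 11917167. Replicates of a group correlated at 0.957 to 0.994 over all genes on the log2(CPM + 1) scale. A count of 3 was worth 0.0739 to 0.354 CPM (counts per 1000000 counts of the library) in the Inhba libraries. The germ cell genes Ddx4 (452 to 887 CPM) and Dazl (685 to 2102 CPM) were abundant in all 15 Inhba animals. Not every germ cell gene was as high, with Pou5f1 between 69.8 and 139 CPM and Dnd1 between 9.22 and 52.8 CPM. Summed over 8 germ cell markers, the younger groups held 3435 to 3879 CPM (WT) and 3522 to 3923 CPM (KO). The older groups held less, 1463 to 2676 CPM (WT) and 1926 to 3170 CPM (KO). The Sertoli cell factor Sox9 (0.253 to 7.97 CPM) and the gonadal factor Nr5a1 (0.152 to 2.60 CPM) were low. All 12 Sertoli cell markers together summed to 44.8 to 141 CPM, all 7 Leydig cell markers to 3.49 to 24.1 CPM and all 10 markers of interstitial mesenchyme to 196 to 350 CPM. Insl3, which defines Leydig cells, stood at 0 to 0.116 CPM. The targeted gene could not check the labels, because Inhba was at 0.0528 to 0.842 CPM in every library. At E13.5 it even went against them, with 6 to 12 counts in each library labelled KO and 1 to 4 in each labelled WT. In these bulk samples, fewer cells of a type and less RNA per cell cannot be told apart. The ages were deposited as separate tables whose names give the same sequencing run, while the name of the Inha table gives another. Age and any other batch that followed it cannot be told apart either. One library stood apart, that of the E13.5 KO animal 696.6, which was the highest of its group for 8 of the 9 members. Animal 831.2 of the same group was the lowest for 8 of the 9.

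In WT germ cells at E13.5, levels per length of transcript spread widely. Ddx4, the mouse Vasa helicase of nuage, led with 172 ± 12.9 CPM per kilobase of exon (SD, n = 3). It was followed by Mael (76.9 ± 5.35), and then by Mov10l1 (44.7 ± 6.01), Asz1 (42.5 ± 4.86) and Fkbp6 (39.4 ± 5.37), whose levels per kilobase lay within 1 SD of each other. Pld6 (3.46 ± 0.889), Gtsf1 (2.38 ± 0.720) and Exd1 (2.27 ± 0.329) formed a low tier whose spreads overlapped from one to the next, and Henmt1 was the lowest at 0.320 ± 0.195 CPM per kilobase. At E15.5 the order had changed. Mael led at 681 ± 108 CPM per kilobase (SD, n = 4), ahead of Ddx4 (273 ± 26.5) and Mov10l1 (223 ± 11.9), and then Fkbp6 (153 ± 38.5) and Asz1 (116 ± 13.8), which lay within 1 SD of each other on the wider of their spreads. Gtsf1 had reached 88.9 ± 24.2 CPM per kilobase, while Henmt1 (13.5 ± 1.46), Pld6 (7.43 ± 1.47) and Exd1 (5.601 ± 0.673) were the lowest. Seen against all genes, the mean CPM of Mael in WT animals was above that of 93.3% of genes at E13.5 and 99.8% at E15.5, and that of Henmt1 above 40.1% and 81.9%.

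**Figure D1:**
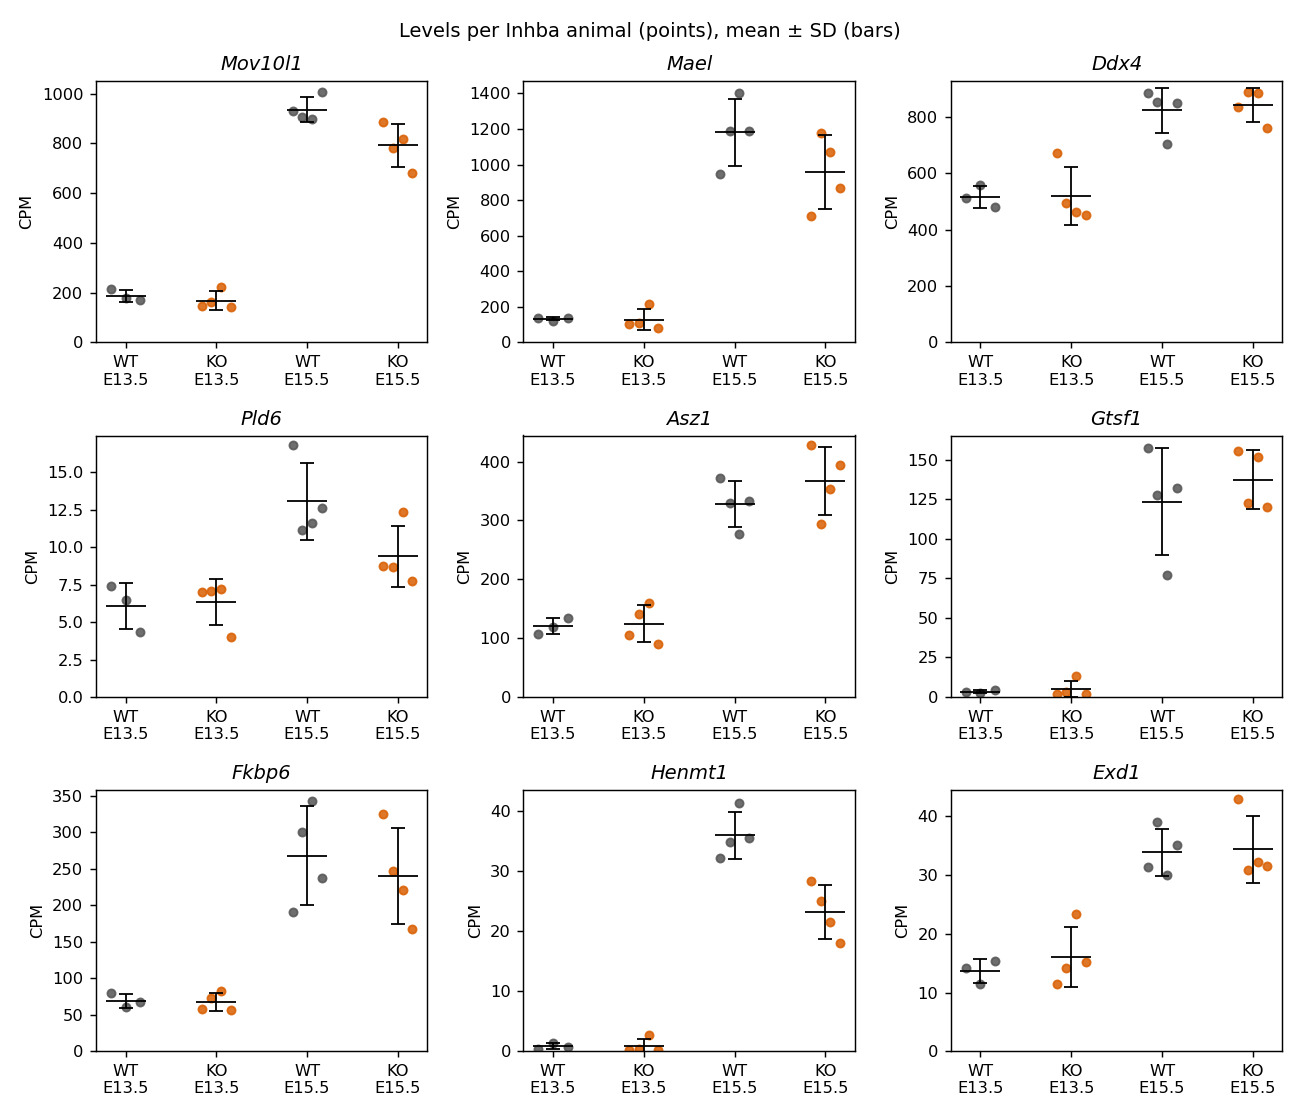
Each panel plots CPM (linear axis from 0) of one gene in the 15 Inhba animals, as points in 4 groups by genotype and age, with a long bar for the mean and short bars for 1 SD. All 9 genes were higher at E15.5 than at E13.5 in both genotypes without overlap, and at E15.5 the KO points of Mov10l1 and Henmt1 lie below all WT points.

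With age, the 9 genes moved in one direction. In WT germ cells 8 of the 9 were called higher at E15.5 than at E13.5 by edgeR, a call being an adjusted p under 0.05 with a change over 1.5-fold. Of all 15380 genes tested, 34.0% were called higher. The same number, 8 of 9, were called higher in KO germ cells, where 29.1% of 14676 genes were. The median log2 fold change of the members was 1.73 in WT and 1.74 in KO animals, beside 0.05 and 0.02 over all genes tested. In CPM, each E15.5 animal was above each E13.5 animal of its genotype for all 9 members, a separation seen for 43.4% of genes in WT and 31.6% in KO animals. Scaling by TMM lowered the ratio of E15.5 to E13.5 by 0.22 in WT and 0.14 in KO animals on the log2 scale relative to CPM (medians over genes), and log2 fold changes given here are on the TMM scale.

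Mov10l1 encodes the RNA helicase that binds piRNA precursors and feeds them into processing. It stood at 216, 177 and 169 CPM in the 3 WT animals at E13.5 and at 929, 906, 897 and 1007 CPM in the 4 at E15.5. In KO animals it stood at 148, 161, 224 and 142 CPM at E13.5 and 888, 782, 819 and 679 CPM at E15.5. From E13.5 to E15.5 it changed on the log2 scale by 2.10 ± 0.13 (SE, adjusted p = 2.3e-08) in WT and 2.14 ± 0.12 (adjusted p = 8.82e-09) in KO animals, so this helicase rose by nearly the same amount in both. Pld6 encodes the mitochondrial nuclease that cuts precursors, known as Zucchini in flies. Its levels were 7.43, 6.44 and 4.37 CPM in WT animals at E13.5 and 16.8, 11.1, 11.6 and 12.6 CPM at E15.5, and it was called higher in WT animals (0.88 ± 0.25, adjusted p = 0.00464). In KO animals Pld6 went from 7.03, 7.08, 7.18 and 4.00 CPM to 8.74, 8.67, 12.4 and 7.77 CPM, and was not called (0.48 ± 0.23, adjusted p = 0.0711). Henmt1, the methyltransferase that protects the ends of mature piRNAs, was a trace transcript at E13.5, with 8, 27 and 14 counts (0.404, 1.43 and 0.737 CPM) in WT animals. At E15.5 it stood at 32.2, 35.0, 41.5 and 35.6 CPM in WT animals, a ratio of means of 42.1. In KO animals it went from 4, 7, 48 and 3 counts (0.221, 0.406, 2.67 and 0.152 CPM) to 28.3, 25.05, 21.5 and 18.03 CPM, a ratio of 26.9. The log2 fold changes of Henmt1 were 5.17 ± 0.61 (adjusted p = 2.56e-06) and 4.69 ± 0.54 (adjusted p = 2.49e-06). The KO value rested on animal 696.6, which held the 48 counts, and without it the log2 fold change in KO animals was 6.33 ± 0.38, above the WT value. The exons of Henmt1 overlap those of Gm9857 on the opposite strand over 392 of 2675 bases, and whether counting used strand is not given in the sources used here. Exd1, a partner of PIWI and TDRD12 with a nuclease-like fold, ranged from 11.5 to 15.4 CPM in the WT group at E13.5, and from 11.4 to 23.3 CPM in the KO group. At E15.5 the ranges were 29.9 to 39.0 and 30.9 to 42.9 CPM, with log2 fold changes of 1.08 ± 0.20 (adjusted p = 0.000153) and 1.01 ± 0.18 (adjusted p = 0.000143).

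Among the genes of nuage and helper proteins, Gtsf1 and then Mael showed the steepest rises. Maelstrom, the product of Mael, is needed in the mouse to silence transposons. WT animals had 140.1, 123 and 137 CPM at E13.5 and 945, 1187, 1403 and 1187 CPM at E15.5, and KO animals went from 104, 109.8, 217 and 83.0 CPM to 711, 1176, 1071 and 867 CPM. The log2 fold changes of Mael were 2.92 ± 0.25 (adjusted p = 1.47e-07) in WT and 2.82 ± 0.23 (adjusted p = 1.02e-07) in KO animals. Gtsf1, a zinc finger cofactor of PIWI proteins, rose from 3.18, 2.38 and 4.37 CPM to 157, 128, 77.0 and 132 CPM in WT animals, a ratio of means of 37.3. KO animals went from 2.16, 3.31, 12.96 and 1.67 CPM to 156, 123, 152 and 119.9 CPM, a ratio of 27.4. The log2 fold changes were 4.999 ± 0.54 (adjusted p = 1.08e-06) and 4.72 ± 0.47 (adjusted p = 5.9e-07), so that Gtsf1, like Henmt1, went from around or below the study's detection limit to well above it. Without animal 696.6, at 12.96 CPM, the log2 fold change of Gtsf1 in KO animals was 5.72 ± 0.31, above the WT value. Fkbp6, a co-chaperone for the loading of PIWI proteins, rose from 60.9 to 79.3 CPM at E13.5 to 191 to 343 CPM at E15.5 in WT animals (1.73 ± 0.21, adjusted p = 3.74e-06). In KO animals it rose from 56.0 to 82.1 CPM to 168 to 325 CPM (1.74 ± 0.20, adjusted p = 2.12e-06). Asz1 encodes GASZ, the mitochondrial scaffold of nuage. Its range moved from 107 to 135 CPM to 277 to 372 CPM in WT animals (1.22 ± 0.17, adjusted p = 1.47e-05), and from 90.7 to 159.6 CPM to 293 to 427 CPM in KO animals (1.48 ± 0.16, adjusted p = 1.08e-06). Ddx4 changed least. WT animals had 513, 559 and 481 CPM at E13.5 and 883, 853, 705 and 849.7 CPM at E15.5, a log2 fold change of 0.45 ± 0.14 (adjusted p = 0.0081) that did not reach 1.5-fold. In KO animals, with 670.1, 493, 464 and 452 CPM at E13.5 and 834, 887, 885 and 762 CPM at E15.5, Ddx4 just passed (0.59 ± 0.12, adjusted p = 0.000565). That call fell under 1.5-fold without the filter on low counts (0.47), with filterByExpr (0.50) and when animal 832.1, 696.6, 831.2 or 1052.4 was left out (0.57, 0.50, 0.55 and 0.58).

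**Figure D2:**
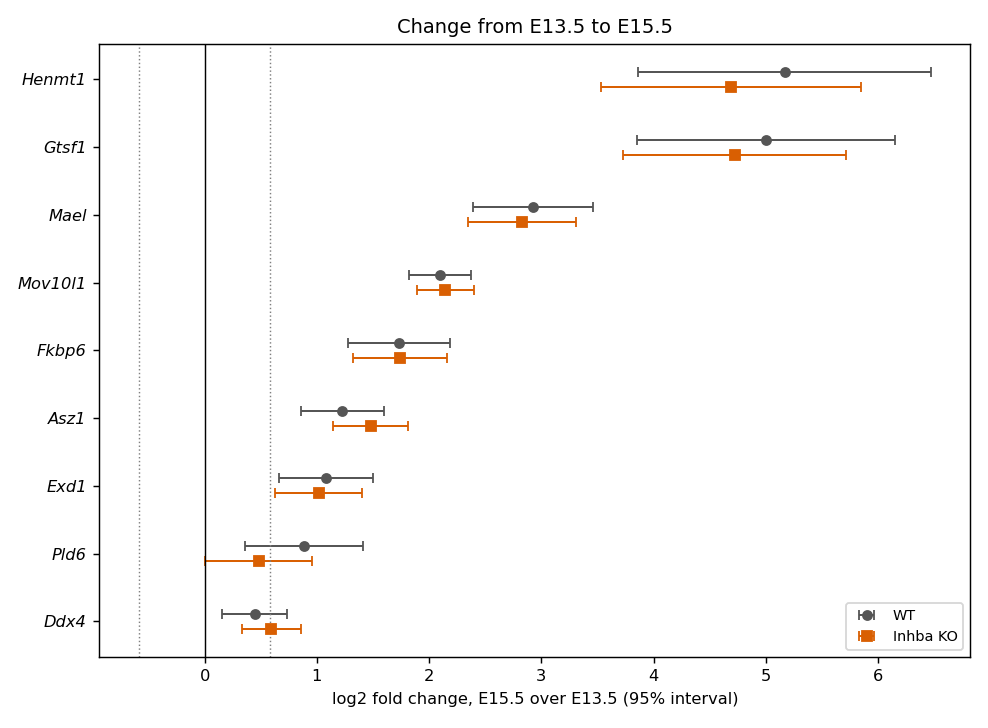
Log2 fold changes from E13.5 to E15.5 from edgeR (horizontal axis) with 95% intervals, for WT (circles) and Inhba KO (squares) animals, for each of the 9 genes. Dotted lines mark a 1.5-fold change. Henmt1 and Gtsf1 lie farthest to the right at 4.69 to 5.17. Nearest to 0 are Ddx4 in WT animals, at 0.45, and Pld6 in KO animals, at 0.48, where Ddx4 is at 0.59. The intervals of the 2 genotypes overlap for every gene.

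Whether the rise with age differed between genotypes was tested as an interaction. None of the 9 members was called, and none of 15841 genes was (0%). At an unadjusted p under 0.05 there were 0 of 9 members and 966 genes, and DESeq2 and limma-voom also called 0 members. Pld6 had the smallest p (-0.45 ± 0.34, adjusted p = 0.796) and Henmt1 the estimate farthest from 0 (-0.52 ± 0.78, adjusted p = 0.886), with 95% intervals of -1.16 to 0.26 and -2.18 to 1.14 on the log2 scale. For Asz1 the estimate was 0.21 ± 0.23 (adjusted p = 0.844). With 1 animal left out, the Henmt1 estimate ranged from -1.10 to 1.12 and that of Gtsf1 from -0.61 to 0.68. For Mov10l1 the difference in rise was 0.00 with an interval of -0.35 to 0.36. The intervals of Gtsf1 (-1.66 to 1.03) and Henmt1 allow differences of over 2-fold. The call of Pld6 in WT animals but not in KO animals is therefore not shown to differ between them.

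At E15.5, after 2 days in which the 9 genes had risen, KO and WT germ cells were compared. None of the 9 members was called by edgeR, and of 15209 genes tested 1 was (0.00658%). In the main edgeR fit, 0 of 9 members and 1590 genes had an unadjusted p under 0.05. DESeq2 and limma-voom called 0 members as well. Henmt1 passed that unadjusted limit with limma-voom (-0.61 ± 0.17) and with only the E15.5 groups fitted (-0.57 ± 0.16). It did not pass under the other alternatives, with DESeq2 at -0.58 ± 0.63, so its SE depended on the fit. Pld6 passed the unadjusted limit with limma-voom (-0.46 ± 0.20) and without KO animal 1052.4 (-0.57 ± 0.24). The median log2 fold change of the members was -0.10 beside -0.01 over all genes. The log2 fold changes ran from -0.58 ± 0.42 for Henmt1 (95% interval -1.47 to 0.32, adjusted p = 0.579) to 0.22 ± 0.16 for Asz1 (-0.11 to 0.56, adjusted p = 0.563). In between lay Pld6 (-0.42 ± 0.22), Mael (-0.24 ± 0.21), Mov10l1 (-0.18 ± 0.11), Fkbp6 (-0.10 ± 0.19), Exd1 (0.08 ± 0.18), Ddx4 (0.09 ± 0.13) and Gtsf1 (0.21 ± 0.39). The 95% interval was -0.42 to 0.06 for Mov10l1, -0.18 to 0.36 for Ddx4 and -0.68 to 0.19 for Mael.

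Mov10l1 and Henmt1, 2 of the 9 members, were lower in each KO animal than in any WT animal at E15.5 in CPM, where 3.85% of genes had groups that did not overlap in either direction. Mov10l1 averaged 935 ± 49.8 CPM in WT and 792 ± 87.0 CPM in KO animals (SD, n = 4 each), a ratio of 0.847. Henmt1 averaged 36.0 ± 3.92 and 23.2 ± 4.45 CPM, a ratio of 0.645. In the exact permutation test of the difference in mean CPM, two-sided, both had p = 0.0286, the smallest that 4 against 4 animals allow. Benjamini-Hochberg adjustment over the 36 member comparisons gave 0.0514. Those 36 include the age comparisons of all 9 members in both genotypes, each with the same exact permutation p of 0.0286. The adjusted value therefore depends on the age changes, and an adjustment over the genotype comparisons alone was not made. The test treats animals as independent, but the animal numbers of 1052.2 and 1052.4 and of 855.1 and 855.2 share their first part, as those of the Inha littermates do, and whether they shared a litter is not stated. On TMM-scaled CPM the groups of Mov10l1 overlapped, with a difference of -102 CPM instead of -143 CPM (exact permutation p = 0.0857), whereas those of Henmt1 stayed apart (-11.0 CPM, exact permutation p = 0.0286). Over 15 alternatives, DESeq2 and limma-voom among them, the log2 fold change of Mov10l1 was -0.24 to -0.12 and that of Henmt1 -0.79 to -0.49. The adjusted p of these fits were 0.357 to 0.979 and 0.365 to 0.979. Both helicase and methyltransferase were lowest in animal 892.2, and without it Mov10l1 was at -0.13 and Henmt1 at -0.49. Animal 892.2 was the lowest KO animal for 6 of the 9 members and animal 855.1, the shallowest library, the highest for 6. Animal 892.2 also had the lowest sum of its group for 5 genes of male gonocyte differentiation (1177 CPM, with the others at 1969 to 2283 CPM) and for 3 PIWI genes (691 CPM, with the others at 1135 to 1484 CPM), and the highest for 7 early germ cell genes (98.9 CPM, with the others at 50.8 to 76.8 CPM). How far these go with the lower Mov10l1 and Henmt1 levels was not tested. Pld6, with 4 WT animals at 11.1 to 16.8 CPM and 3 of 4 KO animals at 7.77 to 8.74 CPM, overlapped through the remaining KO animal at 12.4 CPM (difference -3.66 CPM, exact permutation p = 0.0857).

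**Figure D3:**
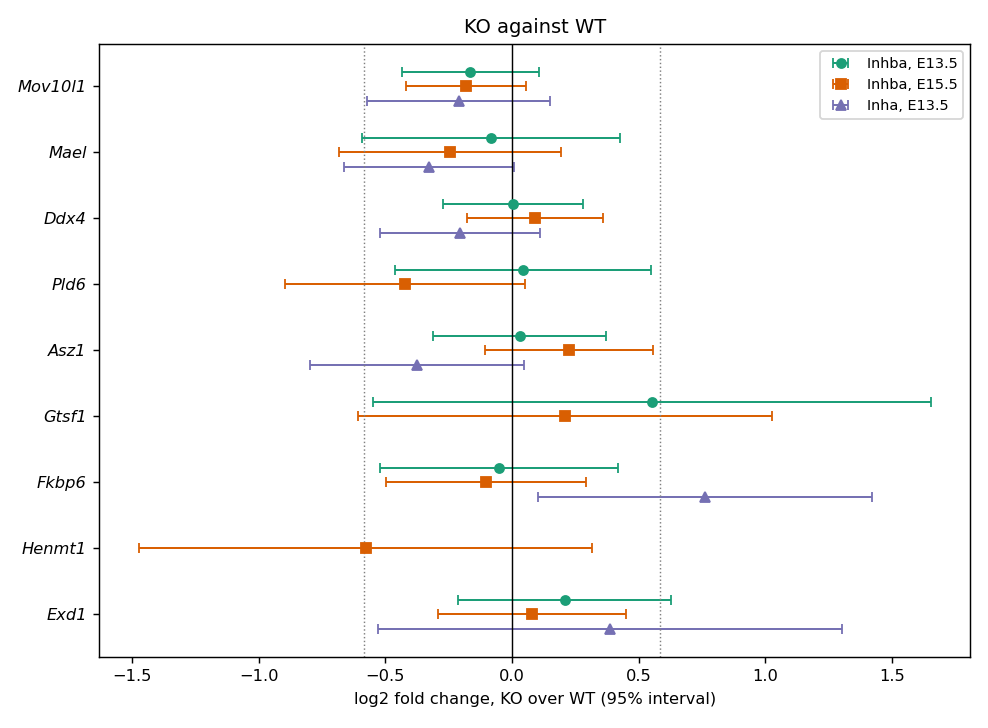
Log2 fold changes of KO over WT from edgeR with 95% intervals (horizontal axis), with dotted lines at a 1.5-fold change. Circles and squares are the Inhba line at E13.5 and E15.5, and triangles the Inha line at E13.5. Every Inhba interval includes 0, while the Inha interval of Fkbp6 (0.10 to 1.42) does not. That interval rests on 2 pairs and on 9798 degrees of freedom borrowed across genes, beside about 16 in the Inhba fits. It therefore does not measure how far Fkbp6 varies between pairs. In the Inhba line the widest belong to Gtsf1 at E13.5 (-0.55 to 1.65) and Henmt1 at E15.5 (-1.47 to 0.32). Henmt1 is absent there at E13.5 because only 1 animal passed the detection limit.

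At E13.5 the same comparison was made before these transcripts had risen. None of the 8 members tested was called, and none of 12739 genes was (0%). At an unadjusted p under 0.05 there were 0 members and 257 genes, and DESeq2 and limma-voom called 0 members. Mean CPM were nearly equal for Ddx4 (517 ± 39.0 in 3 WT and 519.8 ± 102 in 4 KO animals), Asz1 (120.3 ± 13.8 and 124 ± 31.7) and Fkbp6 (69.1 ± 9.41 and 67.3 ± 12.2). Log2 fold changes ran from -0.16 ± 0.13 for Mov10l1 to 0.55 ± 0.52 for Gtsf1, with adjusted p of 1.00 for all 8, and the median was 0.02 beside -0.0015 over all genes. No member had groups that did not overlap, where 4.03% of genes did. Some marker lists of other cells differed between the groups. The 10 Sertoli cell markers tested of 12 had a median log2 fold change of 1.07 (0 called). Over all 12, WT animals had a sum of 64.2 to 88.2 CPM and KO animals one of 73.5 to 141 CPM, which overlap, with no marker at 0. For the 7 Leydig cell markers WT animals had a sum of 3.49 to 5.74 CPM, and every KO animal was higher at 8.53 to 13.4 CPM. The 8 erythroid markers separated likewise, at 3.22 to 4.10 CPM and 6.98 to 13.1 CPM, while the sums of 10 mesenchyme markers (201 to 219 and 196 to 310 CPM) and 7 endothelial markers (103 to 151 and 90.2 to 162 CPM) overlapped. Gene by gene, all 5 mesenchyme markers tested had positive log2 fold changes in KO animals, with a median of 1.89 (0 called, 4 at an unadjusted edgeR p under 0.05). The medians were 1.78 for 2 Leydig cell, 3.87 for 2 erythroid and -0.02 for 3 endothelial markers tested, with 0 called. The part of RNA from other cells in the values of the members was not tested.

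The E13.5 KO group was uneven, and animal 696.6 set its spread. Relative to the WT mean, Gtsf1 was at 3.92, Henmt1 at 3.12, Exd1 at 1.70 and Mael at 1.63 times in this animal, whereas Ddx4 was at 0.897 times. The same library was high in genes whose levels were higher at E15.5, with Piwil4 at 25.6 CPM (6.15 to 7.04 CPM in the other KO animals) and the male germ cell regulator Nanos2 at 27.1 CPM (3.38 to 9.47 CPM). It was low in Kit, the receptor of early germ cells, at 115 CPM (195 to 267 CPM). Nanos2 and Kit were chosen after their values were seen. Its Sertoli cell markers summed to 98.9 CPM, inside the range of its group, but its sums were the highest of the E13.5 Inhba animals for interstitial mesenchyme (310 CPM, with the others at 196 to 245 CPM), Leydig cell markers (13.4 CPM) and erythroid markers (13.1 CPM). Their part in its values was not tested. Without this animal the log2 fold change of Gtsf1 turned from 0.55 to -0.46, that of Mael went from -0.08 to -0.40 and that of Mov10l1 from -0.16 to -0.28, all with adjusted p of 1.00. Counting animal 928.1 as WT, the genotype in its own record, gave 0 members called too, with Gtsf1 at 0.92, Exd1 at 0.39 and Ddx4 at -0.26. This last alternative was chosen after seeing the data.

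**Figure D4:**
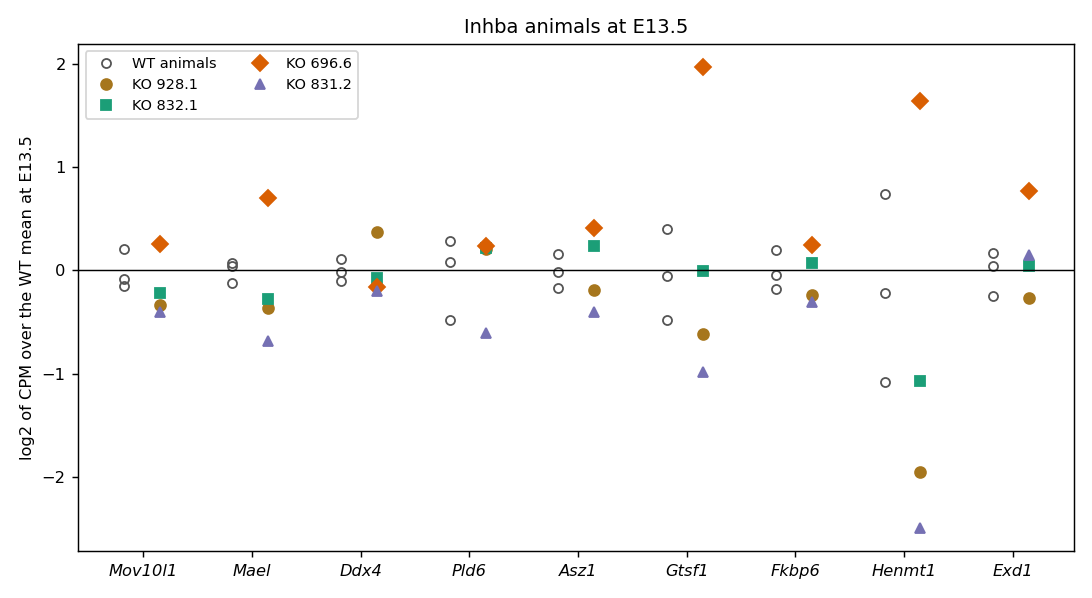
Log2 of the CPM of each E13.5 Inhba animal over the mean of the 3 WT animals (vertical axis), for the 9 genes. Open circles are WT animals and filled symbols the 4 KO animals. Animal 696.6 (diamonds) lies at 1.97 for Gtsf1 and 1.64 for Henmt1, above all other animals, and at -0.16 for Ddx4.

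In the Inha line, KO and WT littermates were compared within pairs, which addresses raised instead of absent activin A. None of the 6 members in that table was called, where 0.357% of 9798 genes were, and DESeq2 and limma-voom called 0 members. With 1 residual degree of freedom, the spread was borrowed across genes. At an unadjusted p under 0.05 there was 1 member, Fkbp6, and 913 genes. Fkbp6 went from 25.8 to 38.1 CPM in pair 1 and from 24.6 to 54.7 CPM in pair 2, ratios of 1.47 and 2.22. Its log2 fold change was 0.76 ± 0.34 (95% interval 0.10 to 1.42, adjusted p = 0.443). The interval uses 9798 degrees of freedom borrowed across genes, so it does not measure how far Fkbp6 varies between pairs. With 1 animal left out the log2 fold change ranged from 0.52 to 1.00. Mael was at 148 CPM in KO against 170.5 CPM in WT in pair 1 and at 166 against 199.8 CPM in pair 2, and did not pass the test (-0.33 ± 0.17, adjusted p = 0.555). Fkbp6 and Mael were the 2 of 6 members whose groups did not overlap, and 33.6% of genes in this table had groups that did not overlap. The other members disagreed between litters or barely moved in one of them. Mov10l1 had ratios of 0.987 and 0.854, Asz1 of 0.983 and 0.678, Ddx4 of 1.097 and 0.777, and Exd1 of 0.983 and 2.02. The median log2 fold change of the 6 was -0.21 beside 0.01 over all genes. Levels also differed between litters, Mov10l1 being at 179 CPM in the WT animal of pair 1 and 88.0 CPM in that of pair 2.

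**Figure D5:**
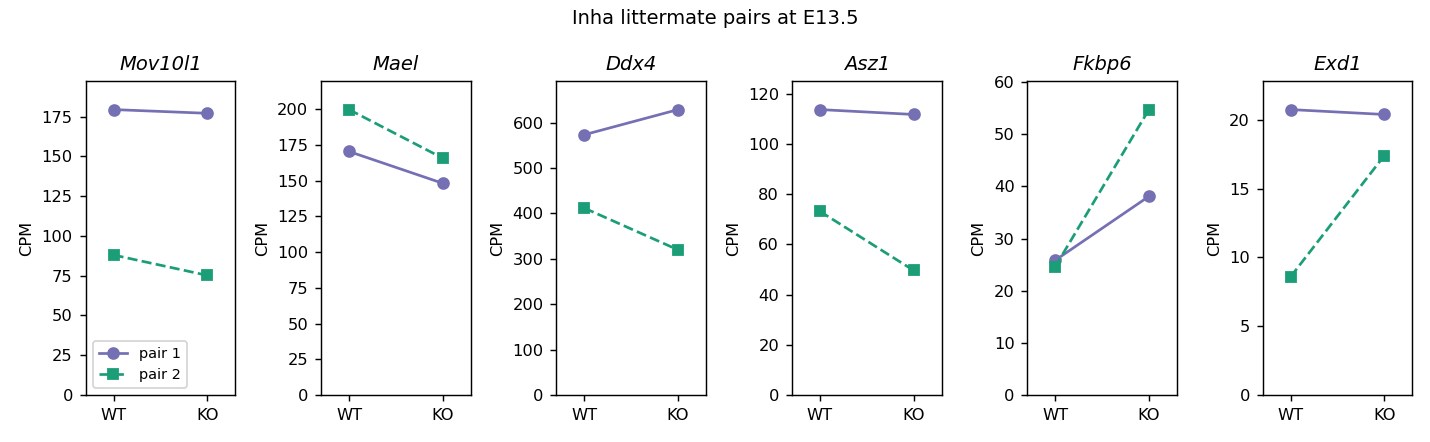
CPM of the 6 members in the Inha table (vertical axis, linear from 0) in WT and KO littermates at E13.5, with a line joining each of the 2 pairs. Fkbp6 is higher in the KO animal of both pairs, at ratios of 1.47 and 2.22, and Mael is lower in both, at ratios of 0.869 and 0.830.

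The other genes of the pathway were read from lists of named genes. All 3 PIWI genes tested were called higher with age in both genotypes, with a median log2 fold change of 3.05 in WT and 3.54 in KO animals. Piwil4, whose product carries piRNAs to the nucleus, went from a mean of 9.42 CPM to 477 CPM in WT animals (5.43 ± 0.47), and Piwil2, whose product cuts transposon transcripts, from 147 to 809 CPM (2.23 ± 0.20). Of 9 Tudor domain genes tested, 7 were called higher in each genotype. They included Tdrd9, a helicase of fetal nuage (6.31 ± 0.52 in WT animals), Tdrd1, which docks PIWI proteins (3.61 ± 0.32), and Tdrd12, a partner of Exd1 (0.98 ± 0.18). Tdrkh, a mitochondrial Tudor protein, stayed under 1.5-fold (0.29 ± 0.09). Of 6 other production genes, 2 were called higher and 1 lower in WT animals, and 2 higher and 2 lower in KO animals. Pnldc1, which trims precursors, was among those that rose (0.82 ± 0.15 in WT animals). Mov10, a helicase related to Mov10l1, fell from 128 to 68.1 CPM in WT animals (-1.13 ± 0.19) and by 0.75 ± 0.18 on the log2 scale in KO animals. Gtsf1l, a paralog of Gtsf1, was not called (0.44 ± 0.47, adjusted p = 0.41 in WT animals). Of 8 genes of nuclear silencing, 6 were called higher and 1 lower in each genotype. Among the 6 was Dnmt3l, a cofactor of DNA methylation, which went from 0.824 to 115 CPM in WT animals (6.88 ± 0.68). None of the genes on these 4 lists was called between genotypes at E13.5, at E15.5 or in the Inha pairs. Among the 9 members, Henmt1 and Gtsf1 had increases close to those of Piwil4, and Ddx4 one close to that of Tdrkh.

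Similarity of profile was measured as the correlation of TMM-scaled log2 CPM over the 15 Inhba animals among 12424 protein-coding genes. These points share the split by age, so high values are common and are a description only. Mov10l1 was most like Sohlh1 (r = 0.996), Trim68 (0.995) and Ncan (0.994). Mael was most like B430306N03Rik (0.993), Prkg1 (0.992) and Tdrd9 (0.991), and Gtsf1 most like Nradd (0.998), Siae (0.994) and Gm18336 (0.992). For Henmt1 they were Tmem232 (0.991), Cyp4x1 (0.991) and Gm7173 (0.990), and for Fkbp6 Pigf (0.991), Lins1 (0.991) and Arl2bp (0.990). Exd1 was nearest to Gm5113 (0.982), Bin3 (0.979) and Hsf3 (0.977). Asz1 was nearest to Ccng2 (0.984), Ufc1 (0.979) and Gtsf1 (0.974), the only member named for another member. The values were lowest for the genes that changed least with age, Ddx4 with Arl13b (0.938), Epb41l4a (0.936) and Rassf2 (0.924), and Pld6 with Slc25a22 (0.906), Spag5 (0.895) and Mib2 (0.892).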

How the data were processed

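RNA sequencing of GFP-positive germ cells was deposited by the authors as 3 tables of raw read counts per gene, 1 for each age of the Inhba line and 1 for the Inha line, with 1 column per animal for the 2 records of each animal. Per the submitters' processing notes, reads were aligned to GRCm38 with STAR 2.5.2b and the authors counted them with featureCounts of Subread 1.5.2; the strand setting is not given in the sources used here. The deposited Inha table holds only 9798 genes, so it was normalized and tested by itself. Totals were 8466087 to 40600907 counts in the Inhba libraries. Nothing shows that all pups of a group came from separate litters.

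Levels are CPM, counts per 1000000 counts of the library total. Tests were fitted over all genes with edgeR 4.0.16 (TMM, robust quasi-likelihood, Benjamini-Hochberg) in R 4.3.3. All 15 Inhba animals shared one fit, with genes above 2.391 CPM, the study's detection limit, in 2 of the animals compared. The Inha fit had the littermate pair as a block, because each pair came from one litter, as the titles state, and filtered at 2 CPM in 2 animals; deviations of littermates from the group means correlated at 0.256. For a call, the log2 fold change had to pass 0.585 in either direction and the adjusted p had to be under 0.05. Intervals are 95%. The fits were tested on simulated data. Alternatives were RLE factors, no filter, filterByExpr, DESeq2 1.42.0, limma-voom (limma 3.58.1), no fold threshold, only the groups compared, no pair block, each animal left out, the E15.5 KO animals 855.1 and 1052.2 left out, whose trace Inhba levels were within the WT range, and, added after seeing the data, animal 928.1 counted as WT. Beside the members, the genes named were direct partners or paralogs of members, Dnmt3l, a few markers and, for each member called with age, the 3 protein-coding genes of highest correlation. The members, lists and tests were chosen with earlier results of these data known.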

Additional observations from a re-analysis of the deposited data

Results flagged for a closer look

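Values that lay far from the rest of their group were looked for in each group of 4 animals, for the members and for 10 partner genes. A value is given here where its gap to the nearest other animal took up more of the whole range than Dixon's 95% critical value for 4 samples, a limit that chance passes in about 1 of 20 groups. Among 27 groups of members 4 passed, and among 30 groups of partner genes 6 passed.

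In the E13.5 KO group, animal 696.6 stood far above the other 3 for Gtsf1 (12.96 CPM, gap 0.855 of the range) and Henmt1 (2.67 CPM, gap 0.899). It also stood apart for Piwil4 (25.6 CPM, gap 0.954), Tdrd9 (14.5 CPM, gap 0.868), Pnldc1 (34.8 CPM, gap 0.879), Mov10 (129 CPM, gap 0.908) and Dnmt3l (1.67 CPM, gap 0.846). Animal 831.2 of that group was far below the others for Pld6 (4.00 CPM, gap 0.954). At E15.5 the KO animal 855.1 was far above the others for Exd1 (42.9 CPM, gap 0.881), and the KO animal 1052.4 stood apart for Tdrkh (136 CPM, gap 0.890). What set these libraries apart was not tested.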

How the results depend on the processing

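The counts of members called did not move by more than 1.5 times under any alternative: 0 between genotypes, 8 with age in WT animals (9 with no fold threshold, which adds Ddx4), and 7 to 8 in KO animals. No member changed direction with age. Between genotypes, where no member was called, estimates changed sign under some alternatives. At E13.5 Ddx4 was at -0.011 with no filter, -0.028 with filterByExpr and -0.015 with limma-voom, and Asz1 at -0.0055 with filterByExpr. With animal 928.1 as WT, Mael was at 0.076, Ddx4 at -0.26, Pld6 at -0.082, Fkbp6 at 0.056 and the interaction of Mov10l1 at -0.12. Without KO animals 855.1 and 1052.2, Exd1 at E15.5 was at -0.0066 and the interaction of Mov10l1 at -0.085. That interaction was -0.012 with RLE factors, -0.012 with DESeq2 and -0.0034 with limma-voom, those of Gtsf1 and Henmt1 were 0.084 and 0.083 with limma-voom, and that of Fkbp6 was 0.013 with no filter and 0.045 with filterByExpr. On TMM-scaled CPM the E13.5 difference was -4.39 CPM for Ddx4 and -0.0605 CPM for Henmt1.

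With 1 animal left out, log2 fold changes ranged at E13.5 from -0.40 to 0.069 for Mael, -0.15 to 0.090 for Ddx4, -0.14 to 0.21 for Pld6, -0.069 to 0.14 for Asz1, -0.46 to 0.84 for Gtsf1 and -0.13 to 0.061 for Fkbp6. At E15.5 they ranged from -0.28 to 0.027 for Fkbp6 and -0.038 to 0.16 for Exd1. Interactions ranged from -0.11 to 0.12 for Mov10l1, -0.30 to 0.17 for Mael, -0.61 to 0.68 for Gtsf1, -0.22 to 0.093 for Fkbp6, -1.10 to 1.12 for Henmt1 and -0.23 to 0.072 for Exd1. In the Inha pairs the ranges were -0.93 to 0.41 for Mov10l1, -0.73 to 0.29 for Ddx4, -1.02 to 0.19 for Asz1 and -0.19 to 1.01 for Exd1, where an arm of 1 animal was assumed to vary like the other.

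Over all genes, calls at E13.5 went from 0 to 8 with DESeq2, 1 with limma-voom, 2 with only the groups compared and 0 to 3 with 1 animal left out. At E15.5 they went from 1 to 25 with DESeq2, 3 without KO animals 855.1 and 1052.2 and 1 to 3 with 1 animal left out, and for the interaction from 0 to 11 with DESeq2 and 0 to 2. With age, no filter gave 14908 instead of 9555 calls in WT and 12094 instead of 7974 in KO animals, more genes being tested. In the Inha line the 35 calls became 12 with DESeq2, 0 to 22 with 1 animal left out and 0 with no replicate block, and 0 members were called without the pairing. Henmt1 at E13.5 rested on 3 to 48 counts, and its log2 fold change between genotypes there was -0.055 ± 0.67 with no filter and -0.075 ± 0.65 with filterByExpr. Causes of these shifts were not tested.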
